A study of Oryza sativa with 4 samples.

Results

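In young rice panicles, 49 loci were high in 1 library of the emf2b mutant, named GAGT after its barcode, and at least 5 times lower in the other emf2b library, TTAG, and in both wild-type (WT) libraries, ACCC and CGTA. A locus was taken when it reached 20 CPM (a locus's reads scaled to a common library total) in GAGT and 5 times its CPM in each other library, and 49 of 45027 loci did so. The loci were chosen by their measured levels in all 4 libraries, so those levels are a description and are not tested. Of the 49, 12 belong to lists of known stress and tissue genes, 2 more were named after their values were seen, and 35 are known here only by identifier. The highest were dehydrin and water stress genes, and transcription factor, sugar, hormone and calcium signalling genes stood beside them.

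The series compared panicles of plants labelled emf2b-1 with WT panicles, both labelled cultivar Dongjin, with 2 libraries of each. EMF2B encodes a subunit of the Polycomb complex that places the silencing mark H3K27me3 on histones. Panicles were 0.3 to 1.5 cm long (inflorescence stage 7), the greenhouse had natural light and 30°C days with 25°C nights, and cDNA was amplified from 10 ng of RNA per library. The labels do not say whether the libraries of a genotype came from separate plants, or what lesion the allele carries, and the extraction text of the emf2b samples names wild-type tissue, so the genotype label was followed.

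Totals were 12932305 and 16926873 counted reads in emf2b GAGT and TTAG, against 25382519 and 32087683 in WT ACCC and CGTA. EMF2B (LOC_Os09g13630.1) had 9.90 and 11.9 CPM in the emf2b libraries, against 37.1 and 38.8 CPM in WT, or -1.83 ± 0.21 (SE) on the log2 scale (edgeR adjusted p = 0.00661, from its quasi-likelihood test over all loci). GAGT and TTAG were thus both below both WT libraries in EMF2B RNA. Whether its function was lost to the same degree in both was not tested. Loci at 20 CPM or more numbered 7645 and 7686 in the emf2b libraries, against 7720 and 7796 in WT.

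Abscisic acid (ABA) is the hormone through which plants signal water shortage. When its receptors bind it, clade A protein phosphatases (PP2C) release SnRK2 kinases, which activate bZIP transcription factors. These switch on genes for dehydrins and other late embryogenesis abundant (LEA) proteins, which protect drying cells and maturing seeds, and NAC and HD-Zip factors extend the response.

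Turned to each other library, the same rule found 1 locus for emf2b TTAG, 1 for WT ACCC and 0 for WT CGTA. At 3-fold in place of 5-fold, the counts were 112 for GAGT and 16 for TTAG, against 8 for ACCC and 0 for CGTA. At 10-fold they were 16 for GAGT and 0 for each other library. Loci at least 5 times lower in 1 library than in each of the others, where all the others had 20 CPM, numbered 0 for GAGT and 0 for TTAG, against 0 for ACCC and 3 for CGTA. GAGT was the library with the most loci above the other 3 at each of these limits.

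**Figure D1:**
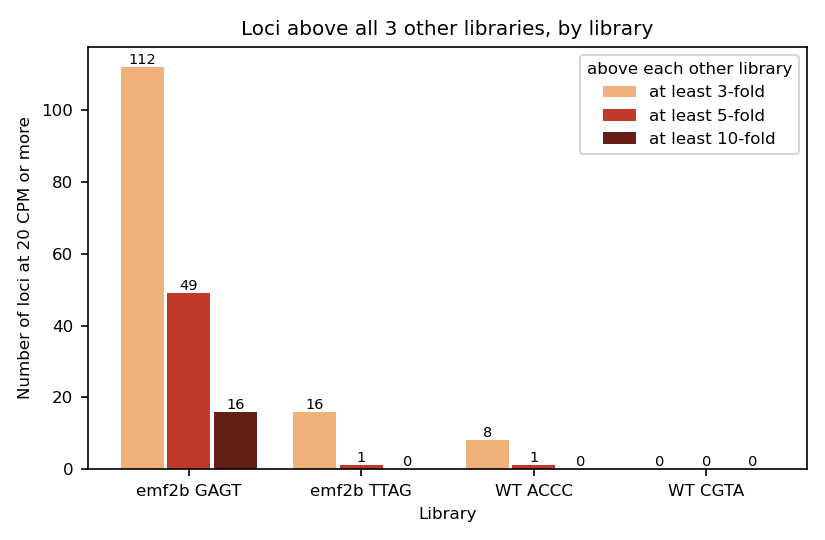
Number of loci at 20 CPM or more that stood above each of the other 3 libraries (vertical axis), for each library (horizontal axis) and 3 fold limits (bars). GAGT has 112, 49 and 16 such loci, and no other library has more than 16 at any limit.

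Together the 49 loci took 1.57% of the reads of emf2b GAGT and 0.151% of those of emf2b TTAG, against 0.0709% and 0.0805% in WT ACCC and CGTA. Without the 2 highest, DHN1 and WSI724, the shares were 0.554% in GAGT and 0.0664% in TTAG, against 0.0215% and 0.0272% in WT. Those 2 loci therefore held most of the reads that the 49 took in GAGT. The median level was 56.8 CPM in GAGT (21.0 to 7368) and 7.03 CPM in TTAG (1.89 to 562), against 1.38 CPM (0.158 to 453) in ACCC and 1.87 CPM (0.0623 to 492) in CGTA. A locus had 272 to 95290 reads in GAGT and 32 to 9520 in TTAG, against 4 to 11496 and 2 to 15788 in WT, so the lowest WT levels rest on a few reads. CPM is not scaled by transcript length, and levels are compared between libraries, not between genes. In bulk panicles, more cells of a type and more RNA per cell cannot be told apart.

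**Figure D2:**
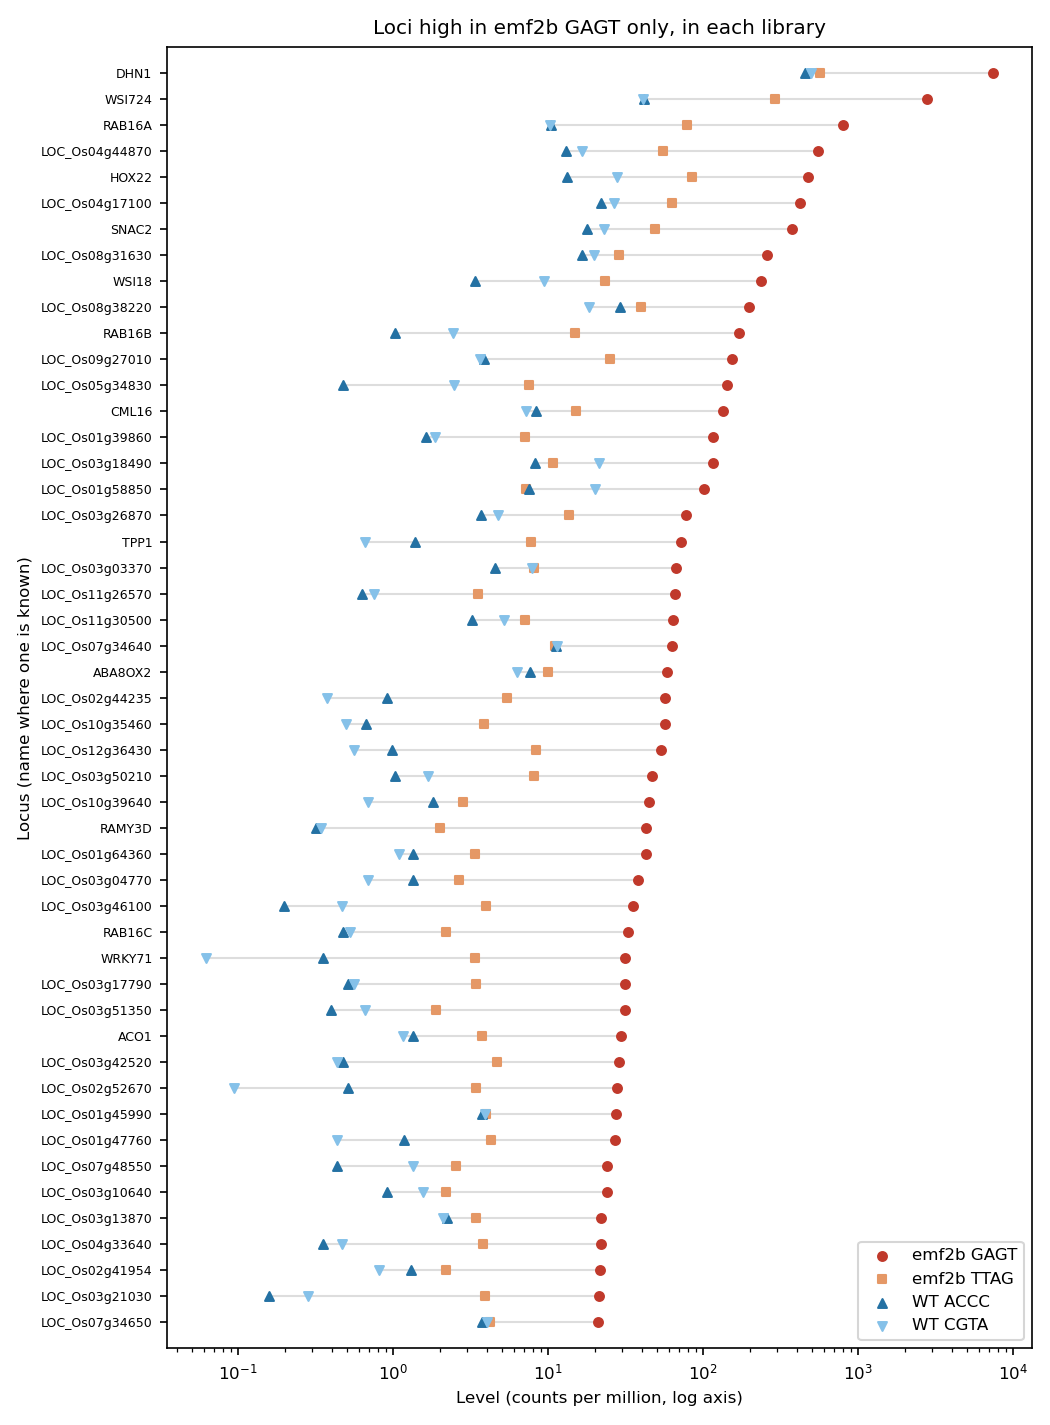
Level of each of the 49 loci (rows, ordered by GAGT) in the 4 libraries, in CPM on a log axis. GAGT lies to the right by the choice of loci, and TTAG lies above both WT libraries at 46 of 49.

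Dehydrins are hydrophilic LEA proteins made in drying cells, and 6 of the 16 loci of the LEA and dehydrin list were among the 49. DHN1 (LOC_Os02g44870.1), a dehydrin gene known from cold and drought, had 7368 CPM in emf2b GAGT and 562 in emf2b TTAG, against 453 and 492 in WT ACCC and CGTA. Only GAGT stood apart, since TTAG was at 1.19 times the WT mean. WSI724 (LOC_Os03g45280.1), named for induction by water stress, had 2775 CPM in GAGT and 288 in TTAG, against 41.4 and 40.7 in WT. Here TTAG too was above WT, at 7.03 times the mean. WSI18 (LOC_Os01g50910.2), a water stress gene for an LEA protein, had 236 CPM in GAGT and 23.3 in TTAG, against 3.39 and 9.41 in WT. Its WT libraries lay farther apart than those of WSI724, and TTAG was above both.

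The RAB16 dehydrin genes form a cluster on chromosome 11 and are classic ABA targets. RAB16A (LOC_Os11g26790.1) had 798 CPM in emf2b GAGT and 78.2 in emf2b TTAG, against 10.4 and 10.3 in WT ACCC and CGTA. RAB16B (LOC_Os11g26780.1) had 170.3 CPM in GAGT and 14.8 in TTAG, against 1.02 and 2.43 in WT. RAB16C (LOC_Os11g26760.1) had 32.5 CPM in GAGT and 2.19 in TTAG, against 0.473 and 0.530 in WT. All 3 had the order GAGT, TTAG, WT, with GAGT at 10.2, 11.5 and 14.9 times TTAG. RAB16D (LOC_Os11g26750.1), of the same cluster, had 0.851 CPM in GAGT and 2.13 in TTAG, against 0.552 and 0.187 in WT, so it was highest in TTAG. The cluster's genes are similar in sequence, and the sources used here do not give how reads were shared among them.

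LEA-list genes outside the 49 were mixed. LEA3-1 (LOC_Os05g46480.4), an LEA gene known from drought, had 19.6 CPM in emf2b GAGT and 5.32 in emf2b TTAG, against 2.99 and 2.96 in WT ACCC and CGTA (edgeR adjusted p = 0.0574). LEA3-2 (LOC_Os03g20680.1), another LEA gene, had 7.50 CPM in GAGT and 1.54 in TTAG, against 0.433 and 0.779 in WT (edgeR adjusted p = 0.0582). Both had the order GAGT, TTAG, WT, with GAGT at 3.69 and 4.88 times TTAG, short of the rule in level and in fold. EMP1 (LOC_Os05g28210.1), an LEA gene of maturing seeds, had 65.1 and 50.2 CPM in emf2b GAGT and TTAG, against 2.05 and 0.530 in WT ACCC and CGTA, and rose in emf2b (edgeR adjusted p = 0.00531). Both mutant libraries were high at this gene, unlike DHN1. LTI6A (LOC_Os07g44180.1), for a small membrane protein known from cold, had 499.8 and 317 CPM in GAGT and TTAG, against 269 and 323 in WT (edgeR adjusted p = 0.319). ASR5 (LOC_Os11g06720.1), of the abscisic acid, stress and ripening family, had 15.3 and 39.6 CPM in GAGT and TTAG, against 6.15 and 3.24 in WT, and rose with TTAG as the higher library (edgeR adjusted p = 0.0172). Of the list's 15 tested genes, 8 were at least 2 times higher in GAGT than in TTAG and 2 at least 2 times lower. Over all 22615 tested loci the shares were 4.12% and 11.7%. The 8 include the 6 genes among the 49, which the rule set at least 5 times above TTAG, so nothing is read from them.

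Of the 12 list genes among the 49, 3 were transcription factor genes. The 35 loci without a name were not classed. HOX22 (LOC_Os04g45810.1), an HD-Zip homeodomain gene known from dehydration, had 474 CPM in emf2b GAGT and 84.95 in emf2b TTAG, against 13.2 and 27.9 in WT ACCC and CGTA. SNAC2 (LOC_Os01g66120.3), a NAC gene of cold and salt responses, had 375 CPM in GAGT and 49.1 in TTAG, against 17.8 and 22.8 in WT. WRKY71 (LOC_Os02g08440.1), a defence gene and a repressor of gibberellin responses in seeds, had 31.3 CPM in GAGT and 3.37 in TTAG, against 0.355 and 0.0623 in WT. TTAG was above both WT libraries at all 3, although WRKY71 had only 9 and 2 reads in WT.

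Another 5 list genes passed the fold at 5 CPM or more in GAGT but stayed under 20 CPM. HOX24 (LOC_Os02g43330.1), a relative of HOX22, had 16.2 CPM in emf2b GAGT and 1.18 in emf2b TTAG, against 0.118 and 0.249 in WT ACCC and CGTA. ZFP182 (LOC_Os03g60560.1), a zinc finger gene of salt responses, had 19.3 CPM in GAGT and 0.709 in TTAG, against 0.394 and 0.0312 in WT. SNAC1 (LOC_Os03g60080.1), a NAC gene of drought responses, had 14.5 CPM in GAGT and 2.30 in TTAG, against 1.50 and 0.966 in WT. These 3 factors were picked by the same fold, so GAGT above the other libraries was fixed by that choice. Their levels in GAGT were lower than those of HOX22 and SNAC2. The phosphatase gene PP2C68 (LOC_Os09g15670.1) had 12.99 CPM in GAGT and 2.36 in TTAG, against 0.276 and 0.530 in WT. DREB1C (LOC_Os06g03670.1), a cold response factor gene, had 103 reads in GAGT and 3 in TTAG, against 1 and 0 in WT, too few outside GAGT to order the other libraries.

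Genes of hormone and sugar metabolism made up 3 more of the 12 list genes. ABA8OX2 (LOC_Os08g36860.1), for a hydroxylase that inactivates ABA, had 58.7 CPM in emf2b GAGT and 9.93 in emf2b TTAG, against 7.64 and 6.26 in WT ACCC and CGTA. TPP1 (LOC_Os02g44230.1), for a phosphatase that makes the sugar trehalose, had 72.1 CPM in GAGT and 7.74 in TTAG, against 1.38 and 0.654 in WT. RAMY3D (LOC_Os08g36910.1), an alpha-amylase gene known from sugar starvation, had 42.8 CPM in GAGT and 2.01 in TTAG, against 0.315 and 0.343 in WT. RAMY3D had the highest ratio of GAGT to TTAG of the 49, at 21.3 (exact 95% interval 15.1 to 31.1, counting error only). The identifier next to TPP1, LOC_Os02g44235.1, had 56.8 CPM in GAGT and 5.44 in TTAG, against 0.906 and 0.374 in WT. Its profile was close to that of TPP1, and whether the pair shares reads was not tested.

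CML16 and ACO1 are the 2 genes named after their values were seen. CML16 (LOC_Os01g04330.1), for a calmodulin-like calcium sensor, had 135 CPM in emf2b GAGT and 15.2 in emf2b TTAG, against 8.35 and 7.17 in WT ACCC and CGTA. ACO1 (LOC_Os09g27820.1), for ACC oxidase, the last enzyme of ethylene synthesis, had 29.5 CPM in GAGT and 3.72 in TTAG, against 1.34 and 1.15 in WT. TTAG was the second highest library at both.

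The 35 loci without a name had 21.0 to 546 CPM in emf2b GAGT and 1.89 to 62.9 CPM in emf2b TTAG, against 0.158 to 28.9 CPM in WT ACCC and 0.0935 to 26.6 CPM in WT CGTA. LOC_Os04g44870.1 was the highest, with 546 CPM in GAGT and 55.3 in TTAG, against 13.001 and 16.6 in WT. LOC_Os05g34830.1 had the highest ratio among them, with 141 CPM in GAGT and 7.56 in TTAG, against 0.473 and 2.46 in WT. Both kept TTAG above WT. Over all 49, GAGT was a median of 9.04 times the next highest library, and at least 10 times at 16 loci.

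At the limit of the rule, the loci just inside were LOC_Os08g38220.1, LOC_Os07g34650.1 and LOC_Os01g58850.1, with GAGT at 5.01, 5.01 and 5.06 times the next highest library. Just outside were LOC_Os10g30150.1, LOC_Os12g13890.1 and LOC_Os07g05570.1, at 4.99, 4.98 and 4.94 times. There was no gap between the sets.

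TTAG held a middle place at most of the 49. It was above both WT libraries at 46, where 45.1% of all tested loci were. It was at least 2 times the WT mean at 35, where 21.5% of all tested loci were, with a median of 3.65 times and a range from 0.52 to 17.8. By size, 6 loci were at 10 times the WT mean or more, 14 at 5 to 10 times, 15 at 2 to 5 times and 14 under 2 times. The rule kept TTAG and WT 5 times below GAGT and did not set their order, but it used these libraries, so the counts are given with no test. The 4 reference genes summed to 851 CPM in emf2b GAGT and 592 in TTAG, against 301 and 228 in WT ACCC and CGTA. Their sums thus had the same order, and 1 of the 4 rose in emf2b, where 13.5% of all tested loci did. Their median log2 ratio of GAGT to TTAG was -0.32, so the order of the sums does not hold for each gene.

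**Figure D3:**
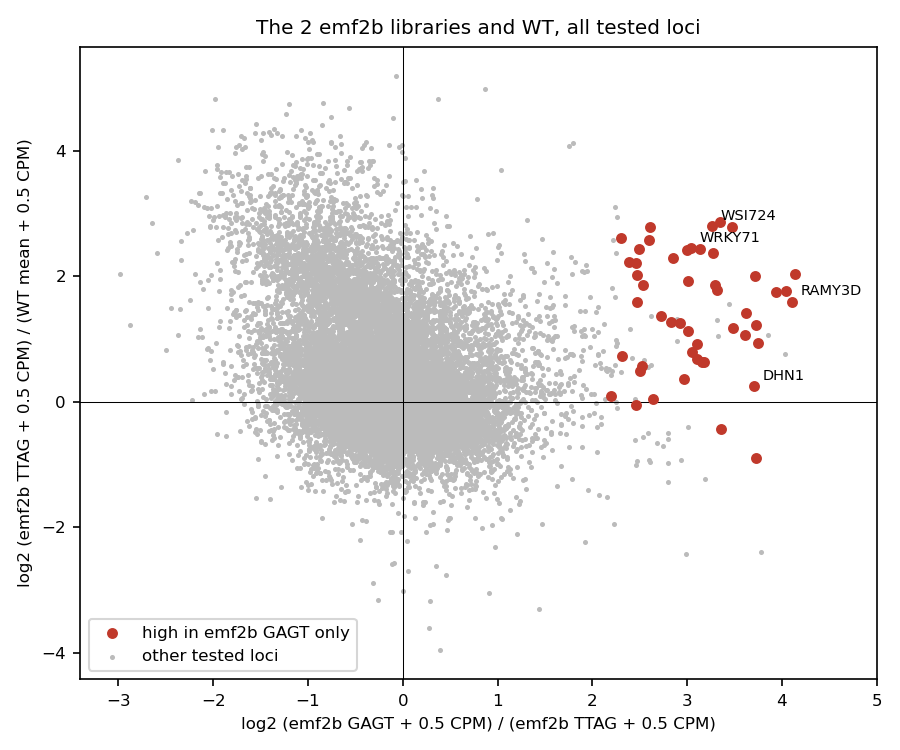
Each point is a tested locus, with the log2 ratio of emf2b GAGT to emf2b TTAG across and of emf2b TTAG to the WT mean upward, 0.5 CPM added to each level. The 49 loci lie to the right by choice, with a vertical median of 1.59, against 0.05 for the other 22566 loci.

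At 3 loci TTAG was not above both WT libraries. LOC_Os01g58850.1 had 101 CPM in emf2b GAGT and 7.15 in emf2b TTAG, against 7.52 and 19.98 in WT ACCC and CGTA. LOC_Os03g18490.1 had 115 CPM in GAGT and 10.8 in TTAG, against 8.16 and 21.3 in WT. At both, the second highest library was WT CGTA. LOC_Os07g34640.1 had 62.7 CPM in GAGT and 10.99 in TTAG, against 11.2 and 11.5 in WT. Its neighbour LOC_Os07g34650.1 had 21.0 CPM in GAGT and 4.19 in TTAG, against 3.74 and 4.02 in WT, so this pair was level in the other 3 libraries.

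With the 2 emf2b libraries taken as replicates, the edgeR test (adjusted p under 0.05) called 35 of the 49 higher in emf2b and 0 lower, where 13.5% of all 22615 tested loci were called higher and 2.21% lower. The rule used these libraries, so nothing is read from that count or from any count of the 49 in the fits that follow. RAB16A averaged 438 CPM in emf2b with an SD of 509, against 10.3 CPM in WT with an SD of 0.0545 (n = 2 each), so its SD in emf2b was larger than its mean. With robust dispersion estimates edgeR called 1 of the 49, where 13% of loci were called higher. With only loci at a mean of 5 CPM or more it called 0, where 1.33% of 13761 loci were called, although 46 had an unadjusted p under 0.05. DESeq2 called 33, where 10.7% of 26699 loci were called higher. Without WT ACCC or WT CGTA edgeR called 0, where 0.645% and 0.0641% of loci were called, with 40 and 39 at an unadjusted p under 0.05. Without GAGT, 25 of the 49 were called higher in TTAG than in WT, where 14.7% of 24949 loci were, and their 49 log2 fold changes had a median of 1.76, against 4.28 with GAGT. Without TTAG all 49 were called, where 8.55% of 22865 loci were; the rule, which set GAGT at least 5 times above each WT library, fixed that direction and size beforehand. In fits with 1 library of a genotype, that library is assumed to vary like the pair. The p-values measure only the spread between these libraries, which may be technical. TTAG has the same genotype label as GAGT, and EMF2B RNA was below WT in both. That all 49 loci were at least 5 times lower in TTAG follows from the rule. The cause of the difference was not tested.

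ABA signalling genes outside the 49 were uneven. For the list counts that follow, 13.5% of all tested loci were called higher in emf2b. In GAGT against TTAG, 4.12% of all tested loci were at least 2 times higher and 11.7% at least 2 times lower. The list counts take in any list gene among the 49, which the rule set at least 5 times above TTAG. No clade A PP2C gene met the rule, but 5 of 8 tested were at least 2 times higher in emf2b GAGT than in emf2b TTAG. Of these 8, 0 were at least 2 times lower. PP2C08 (LOC_Os01g46760.1) had 809 CPM in GAGT and 238 in TTAG, against 168 and 196 in WT ACCC and CGTA (edgeR adjusted p = 0.0891). PP2C06 (LOC_Os01g40094.1) had 82.8 CPM in GAGT and 34.6 in TTAG, against 27.9 and 50.6 in WT (edgeR adjusted p = 0.454). GAGT was the highest library at both, while in emf2b against WT 2 of the 8 rose. Of 13 receptor and kinase genes 1 rose, a share under that of all tested loci. In GAGT against TTAG, 3 were at least 2 times higher and 2 at least 2 times lower. The kinase gene SAPK8 (LOC_Os03g55600.1) had 151 and 161 CPM in GAGT and TTAG, against 177 and 192 in WT (edgeR adjusted p = 0.326).

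Among ABA bZIP and turnover genes, 3 of 13 rose. In emf2b GAGT against emf2b TTAG, 4 were at least 2 times higher and 0 at least 2 times lower. The 4 include ABA8OX2, which is among the 49. NCED3 (LOC_Os03g44380.1), for a rate-limiting enzyme of ABA synthesis, had 101 CPM in GAGT and 21.5 in TTAG, against 17.1 and 23.8 in WT ACCC and CGTA (edgeR adjusted p = 0.144). ABA8OX1 (LOC_Os02g47470.2), a relative of ABA8OX2, had 21.2 and 11.2 CPM in GAGT and TTAG, against 1.02 and 1.62 in WT, and rose (edgeR adjusted p = 0.00747). ABA8OX3 (LOC_Os09g28390.1) had 30.9 and 21.1 CPM in GAGT and TTAG, against 3.98 and 5.30 in WT, and rose (edgeR adjusted p = 0.0074). At NCED3 GAGT alone stood apart, whereas both mutant libraries were above WT at ABA8OX1 and ABA8OX3. The bZIP gene TRAB1 (LOC_Os08g36790.1) had 302 and 274 CPM in GAGT and TTAG, against 239 and 299 in WT (edgeR adjusted p = 0.863).

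In the stress NAC list, 7 of 10 tested genes were at least 2 times higher in emf2b GAGT than in emf2b TTAG, and 1 at least 2 times lower. In emf2b against WT, 5 rose. The counts of 7 and 5 include SNAC2, which is among the 49. NAC10 (LOC_Os11g03300.1), linked to drought tolerance in roots, had 94.1 CPM in GAGT and 35.7 in TTAG, against 6.82 and 9.51 in WT ACCC and CGTA, and rose (edgeR adjusted p = 0.0110). NAC5 (LOC_Os11g08210.1) had 62.2 CPM in GAGT and 12.9 in TTAG, against 9.42 and 14.7 in WT (edgeR adjusted p = 0.144). GAGT was highest at both, and TTAG was between GAGT and WT at NAC10 only.

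In the other stress lists the counts ranged widely, and differences between lists were not tested. The counts include HOX22, TPP1, WRKY71 and RAMY3D, which are among the 49. GAGT was at least 2 times TTAG at 6 of 13 other stress factor genes, 3 of 7 osmolyte genes, 3 of 12 jasmonate genes, 2 of 10 WRKY genes, 2 of 6 low-oxygen and sugar-starvation genes and 1 of 8 DREB and ERF genes. It was so at 0 of 8 antioxidant and senescence genes, 0 of 4 pathogenesis-related genes and 0 of 4 phytoalexin and phenylpropanoid genes. In reverse, TTAG was at least 2 times GAGT at 1 other stress factor gene, 1 pathogenesis-related gene and 0 genes in the rest of these lists. In emf2b against WT, 6, 2, 1, 4, 2, 2, 2, 1 and 3 genes of these 9 lists rose, in the order given, where 13.5% of all tested loci did. The 1 of 12 jasmonate genes was under that share. PBZ1 (LOC_Os12g36880.1), a pathogenesis-related gene, had 34.95 and 85.5 CPM in GAGT and TTAG, against 4.77 and 3.37 in WT, and rose with TTAG as the higher library (edgeR adjusted p = 0.00684). The fermentation gene PDC2 (LOC_Os03g18220.1) had 207 and 209.8 CPM in GAGT and TTAG, against 248 and 320 in WT (edgeR adjusted p = 0.140). ASN1 (LOC_Os03g18130.2), an asparagine synthetase gene, had 70.5 CPM in GAGT and 18.4 in TTAG, against 7.72 and 9.38 in WT, and rose (edgeR adjusted p = 0.0313). No gene of the 14 stress lists other than heat shock fell by edgeR or DESeq2, and 6 were lower in emf2b at an unadjusted edgeR p under 0.05. Only 2.21% of all tested loci fell by edgeR, so nothing is read from the lack of falling genes.

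Heat shock genes had none at least 2 times higher in emf2b GAGT than in emf2b TTAG, where 4.12% of all tested loci were. At least 2 times lower were 7 of 17, where 11.7% of all tested loci were. HSP16.9A (LOC_Os01g04370.1), a small chaperone gene, had 2501 and 1821 CPM in GAGT and TTAG, against 15647 and 8986 in WT ACCC and CGTA, and fell (edgeR adjusted p = 0.0117). HSP18.2 (LOC_Os01g08860.1) had 2766 and 6914 CPM in GAGT and TTAG, against 10301 and 2442 in WT (edgeR adjusted p = 0.717), so its WT libraries lay farther apart than its emf2b libraries. The list summed to 6319 CPM in GAGT and 10767 in TTAG, against 29032 and 12341 in WT, and the gene that rose was the heat stress factor HSFB2C (LOC_Os09g35790.1), with 111 and 169.6 CPM in GAGT and TTAG, against 80.6 and 62.2 in WT (edgeR adjusted p = 0.0424).

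**Figure D4:**
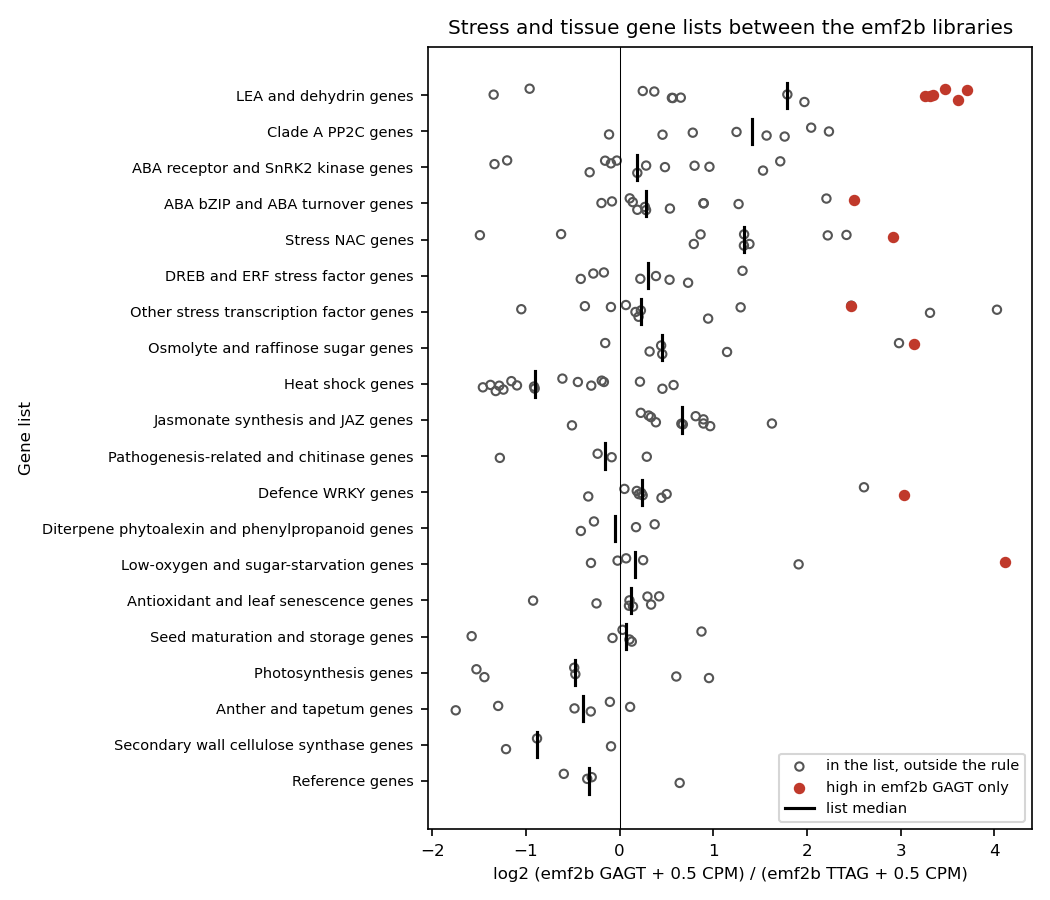
Log2 ratio of emf2b GAGT to emf2b TTAG, 0.5 CPM added to each (horizontal axis), for every tested gene (points) of 20 lists (rows), with list medians as bars and the genes among the 49 filled. The medians of the LEA, PP2C and NAC lists are 1.79, 1.41 and 1.33. That of heat shock genes is -0.91, and that of all tested loci is -0.10. Medians include the filled genes, which lie to the right by choice: 6 in the LEA list, 0 in the PP2C list and 1 in the NAC list.

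Lists of seed, leaf, anther and wall genes held none of the 49. They have only 9, 7, 14 and 3 counted loci, and 49 of all 45027 loci met the rule, so nothing is read from that absence. Seed maturation and storage genes summed to 13.2 CPM in emf2b GAGT and 14.6 in emf2b TTAG, against 8.59 and 9.44 in WT ACCC and CGTA. Photosynthesis genes summed to 66.8 CPM in GAGT and 119.8 in TTAG, against 109 and 117 in WT. Anther and tapetum genes summed to 236 CPM in GAGT and 525 in TTAG, against 206 and 205 in WT. None of these sums was highest in GAGT. Secondary wall cellulose synthase genes summed to 12.5 CPM in GAGT and 17.5 in TTAG, against 10.4 and 10.9 in WT. In GAGT 1 of 9 seed genes (OLE16, an oil body gene) and 4 of 14 anther genes (TDR, C6, RTS and RAFTIN1) had 0 reads, as did 0 of 7 photosynthesis and 0 of 3 wall genes. The part of tissue make-up in the 49 loci was not tested.

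By chromosome, 13 of the 49 were on chromosome 3 (26.5%, where 15.6% of loci at 20 CPM or more in GAGT lie) and 5 on chromosome 11 (10.2%, where 4.07% lie), of which 3 are RAB16 genes. Chromosome 6 held 0. RAB16C, RAB16B and RAB16A follow each other in the table with no locus between them, as do TPP1 with LOC_Os02g44235.1 and LOC_Os07g34640.1 with LOC_Os07g34650.1. ABA8OX2 and RAMY3D have 2 loci between them.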

How the data were processed

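Whole-number read counts per gene model in 4 libraries, deposited by the authors without normalization, were used. The submitters' processing notes list TopHat2 2.0.5 and DESeq 1.10.1. The sources used here do not give the counting program, the genome build and annotation, or whether strand was used, so similar, overlapping and antisense genes are uncertain. Columns carry a genotype and a barcode and were assigned to a group only.

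CPM was computed from column totals (Python 3.11.15, pandas 2.3.3). Emf2b was compared with WT by edgeR 4.0.16 (R 4.3.3): filterByExpr (minimum count 10, minimum total 15), TMM, and the quasi-likelihood F test with Benjamini-Hochberg adjustment over 22615 loci and 2 residual degrees of freedom. DESeq2 1.42.0 was an alternative. Log2 fold changes are emf2b over WT. The edgeR step was tested on simulated data. A count of 3 reads is 0.232 and 0.177 CPM in emf2b GAGT and TTAG, against 0.118 and 0.0935 CPM in WT ACCC and CGTA; intervals cover counting error only.

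The 49 loci and the 20 gene lists (250 loci, 240 in the table, 173 tested) were chosen with earlier results of these data known. Named were all list genes among the 49, the highest loci by level or ratio, those at the limit, and the 2 highest genes outside the rule of a stress list where they showed it did not move as 1 block. RAB16D, LEA3-1, LEA3-2, ASR5, NCED3, ABA8OX1, ABA8OX3, ASN1, the genes under 20 CPM, LOC_Os02g44235.1 and the loci with TTAG not above WT were added after their values were seen. Gene names are general knowledge, looked up in a RefSeq table of assembly ASM3414082v1, whose coordinates were not used: 158 of 250 symbols lay on the expected chromosome in order, 2 out of order, 5 on another chromosome, 5 more than once, and 80 were not found, among them WSI18, WSI724, ASR5, SNAC1, NAC10, ZFP182, ASN1 and HSP18.2; EMF2B was not found either. Sequences were not analysed here.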

Additional observations from a re-analysis of the deposited data

How the results depend on the processing

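The rule gave 49 loci, and 54 or 53 with TMM or DESeq2 size factors (sharing 49 and 48 with the 49), 46 after thinning to the smallest total and 64 at 10 CPM. It gave 27 at 50 CPM, 112 at 3-fold and 16 at 10-fold, and 50 to 152 with each other library left out of the rule, the 152 without TTAG. List genes meeting the rule numbered 12, but 6 at 10-fold, and 12 to 22 with a library left out, the 22 without TTAG. These list counts and left-out libraries were chosen after seeing the data. Over all loci emf2b against WT gave 3556 edgeR calls, 210 among loci at a mean of 5 CPM or more, and 20 to 3927 with 1 library left out (20 without WT CGTA, 189 without WT ACCC). Of the 49, 35 were called higher, where 13.5% of all tested loci were. With robust dispersion 1 was, where 13% of loci were. Among loci at a mean of 5 CPM or more 0 were, where 1.33% of loci were. The rule used these libraries, so nothing is read from these counts of the 49. The cause of the differences between settings was not tested. For the 14 named loci, log2 fold changes stayed above 0 in all 11 alternatives, the lowest being 0.15 for DHN1 without GAGT. The rule fixed that sign in every fit that kept GAGT, so nothing is read from it there. Without GAGT, 45 of all 49 log2 fold changes were above 0. No paired analysis was possible because the columns carry no replicate number. The planned promoter comparison was not run. Depth limits the lowest WT values, which rest on 2 to 4 reads.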
